A study of Mus musculus with 114 samples.

Results

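Arntl, Clock and Npas2 encode the activators of the circadian clock, its positive limb. Their rows were found in the count table by the Ensembl identifiers ENSMUSG00000055116, ENSMUSG00000029238 and ENSMUSG00000026077, and all 3 of the 3 genes were present among 13101 rows. In mammals the Arntl product BMAL1 pairs with CLOCK through basic helix-loop-helix (bHLH) and PAS domains, and the pair switches on genes that carry an E-box, among them Per1, Per2, Cry1, Nr1d1 and Dbp. PER and CRY proteins return to inhibit the pair, while the REV-ERB proteins made from Nr1d1 and Nr1d2 repress Arntl and ROR proteins activate it through a shared DNA element. NPAS2 is a close relative of CLOCK that can take its place beside BMAL1 and is known for its expression in the mammalian forebrain.

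The study sequenced ribosome-bound RNA of the prefrontal cortex, taken from Ribo-tag mice. In these a haemagglutinin tag on a ribosomal protein lets the ribosomes of 1 cell type be pulled down with an antibody. Libraries titled PV number 55 (28 from females, 27 from males) and libraries titled C number 58 (29 from females, 29 from males). Both sets cover 6 zeitgeber times (ZT, counted in hours from the start of light): ZT2, ZT6, ZT10, ZT14, ZT18 and ZT22, with 8 to 10 PV-titled and 9 or 10 C-titled libraries at each. The sources used here do not give the Cre driver, the light schedule, the strain or the age of the mice, or whether each library is a separate animal. The p-values therefore measure only the spread between these libraries, which may be technical.

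The labels contradict themselves on the cell type: PV-titled libraries have pyramidal cells entered as their cell type, and C-titled libraries have parvalbumin interneurons. Marker genes went with the titles. All 9 PV interneuron markers and all 6 GABAergic markers in the table were higher in PV-titled libraries, and 10 of 11 pyramidal markers were lower. Of all genes tested, 44.3% were higher in PV-titled libraries and 43.2% were lower. Of 8 markers of other interneurons, 6 were also higher in PV-titled libraries, among them Sst (83.9 ± 23.1 CPM in PV-titled libraries, 18.05 ± 8.13 CPM in C-titled ones, SD), and 2 (Cck and Lamp5) were lower. Libraries are therefore called by their titles. PV-titled libraries were also higher for all 8 astrocyte, 7 oligodendrocyte, 8 microglial and 8 endothelial or mural markers in the table, beside the same 44.3% of all genes. Summed over genes, a PV-titled library held 19.1 to 39.5 M counts (M, mega) and a C-titled library 24.6 to 44.1 M. In 8 libraries the median correlation with the rest of the same prefix lay far below the others: 3 PV-titled (ZT10, ZT14 and ZT22; 0.816 to 0.855, median of the prefix 0.940) and 5 C-titled (all ZT2 or ZT6; 0.879 to 0.942, median 0.978). They are called the libraries that stand apart, and results that rest on them are given with and without them. Titles carry a library number, and these numbers form 2 separate ranges, taken here as batches.

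The Arntl start site carries a known REV-ERB and ROR response element (RORE), and its sequence is shown because Arntl was the member with a rhythm in both prefixes below. The gene lies on chr7:113207465-113314126 (GRCm38, plus strand). The window of 300 bases at chr7:113207261-113207560 (plus strand, 250 bases before to 50 after a start site, from the RefSeq promoter table of GRCm38.p6) reads, with matches to AAAGTAGGTNA (the half-site AGGTCA with its C left open, and the 5 bases before it in this window) in capitals:
Arntl: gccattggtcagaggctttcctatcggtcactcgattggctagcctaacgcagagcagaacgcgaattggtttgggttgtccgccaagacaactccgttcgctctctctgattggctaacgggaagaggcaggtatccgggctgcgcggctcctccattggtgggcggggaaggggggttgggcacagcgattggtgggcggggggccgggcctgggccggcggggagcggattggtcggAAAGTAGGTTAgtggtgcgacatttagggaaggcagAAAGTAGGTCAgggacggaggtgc
The 2 capital runs begin at positions -10 and 27 relative to the start site and lie on the plus strand. The letters were chosen with this sequence in view, so their presence in it is a description. Searched on both strands, AAAGTAGGTNA occurred in 20 of 32851 promoter windows of the same length (0.0609%). The 1 window that held it 2 times is the one printed. An overlapping Arntl window, chr7:113207215-113207514, is also among the 20, with its match at position 37 from its own start site. As the letters came from Arntl, this rarity is a description too. The second capital run contains the half-site AGGTCA, which 16.3% of windows hold. The half-site also occurred in 1 of the Clock windows, as TGACCT at position -114 from its own start site. It was not found in the other windows of the 3 genes. Neither the E-box CACGTG (7.15% of windows) nor the D-box TTATGTAA (0.938% of windows) was found in any window of the 3 genes. A match says nothing of binding in these cells, and no match speaks only of these letters in these windows.

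Clock lies on chr5:76209868-76304792 (minus strand) and Npas2 on chr1:39193731-39363236 (plus strand). An antisense gene, Gm45355, shares 33 bases of exon with Arntl, and the sources used here do not say whether the counting used strand. Genes that overlap Clock and Npas2 share 0 exon bases with them.

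Clock, which encodes the DNA-binding partner of BMAL1, was higher in PV-titled libraries, Npas2 was lower there, and Arntl did not pass the test. Clock ranged from 43.5 to 116 CPM (counts scaled to a common library size with TMM) in PV-titled libraries with a median of 74.5, and from 37.0 to 115 CPM in C-titled libraries with a median of 53.1. The ranges overlapped, yet 53 of 55 PV-titled libraries exceeded the median of the C-titled ones. Means were 76.3 ± 15.3 CPM in PV-titled libraries and 54.3 ± 12.1 CPM in C-titled libraries (SD, n = 55 and 58). The fitted difference was 0.50 log2 (SE 0.05, 1.41-fold, adjusted p = 5.73e-16, edgeR). It was 0.44 in libraries of the first number range and 0.53 in those of the second. Of all 13053 genes tested, 87.5% passed this test, 44.3% as higher and 43.2% as lower in PV-titled libraries, so passing it sets no gene apart. The median difference over all genes was 0.01 log2.

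Npas2, the gene for the alternative partner of BMAL1, ranged from 35.9 to 111 CPM in PV-titled libraries (median 55.9) and from 40.5 to 212.7 CPM in C-titled libraries (median 61.6). The ranges overlapped widely, and 18 of 55 PV-titled libraries exceeded the C-titled median. Its means were 56.8 ± 14.3 CPM in PV-titled libraries and 67.2 ± 25.5 CPM in C-titled ones (SD), and the fitted difference was -0.22 log2 (SE 0.07, adjusted p = 0.00253). The difference was -0.28 in the first range (adjusted p = 0.0122) and -0.16 in the second (adjusted p = 0.113). With those that stand apart left out it was -0.17 (adjusted p = 0.00248), with means of 55.9 ± 12.1 CPM in 52 PV-titled and 62.7 ± 12.1 CPM in 53 C-titled libraries.

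Arntl had values from 36.1 to 90.7 CPM in PV-titled libraries (median 54.1) and from 38.4 to 88.8 CPM in C-titled libraries (median 60.2). The 2 sets covered nearly the same range. Its means were 58.0 ± 13.2 CPM in PV-titled libraries and 61.6 ± 12.3 CPM in C-titled ones (SD), a fitted difference of -0.08 log2 with an interval of -0.17 to 0.01 (SE 0.05, adjusted p = 0.0981). The difference was -0.23 in the first range (adjusted p = 0.00273) and 0.05 in the second (adjusted p = 0.376). It was -0.12 with those that stand apart left out (adjusted p = 0.00651), and 0.12 (adjusted p = 0.0250) when libraries were scaled by their totals alone. That scaling moved the median of all genes to 0.21 log2, and with it the Npas2 difference was -0.012 log2. Relative to that median, Arntl was at -0.09, Clock at 0.48 and Npas2 at -0.22. Under TMM, relative to its own median, they were at -0.09, 0.49 and -0.23. Subtracting the median takes out a shift shared by all genes, so this likeness follows from the step and is no check of the scaling.

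In bulk samples such as these, fewer cells of a type and less RNA per cell cannot be told apart. Summed over its list, the CPM of astrocyte markers had a median of 1390 (range 1077 to 2566) in PV-titled libraries and 536 (range 330.4 to 1255) in C-titled libraries. For microglial markers the median was 199.9 (167.3 to 300.9) in PV-titled libraries and 63.1 (44.3 to 97.2) in C-titled ones. Oligodendrocyte markers had a median of 492.2 (263.6 to 794.6) in PV-titled libraries and 223.4 (137.7 to 357.8) in C-titled ones, and endothelial and mural markers 143.7 (68.9 to 285.2) in PV-titled libraries and 25.6 (9.0 to 65.1) in C-titled ones. The oligodendrocyte, microglial and vascular sums thus differed like the astrocyte sum, with PV-titled medians higher. No marker gene was at 0 in every library. The part of such cells in the level of Clock or Npas2 was not tested.

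Ratios of counts within a library need no scaling between libraries. Npas2 counts over Clock counts ranged from 0.369 to 1.89 in PV-titled libraries, with a mean of 0.779 ± 0.285, and from 0.644 to 3.41 in C-titled libraries, with a mean of 1.28 ± 0.480 (SD, n = 55 and 58). Only 3 of 55 PV-titled libraries exceeded the C-titled median of 1.18. Arntl over Clock behaved alike, at 0.784 ± 0.213 in PV-titled libraries and 1.17 ± 0.275 in C-titled ones, with 3 of 55 PV-titled libraries above the C-titled median of 1.19. Npas2 over Arntl was 1.02 ± 0.342 in PV-titled libraries and 1.13 ± 0.515 in C-titled ones, a gap smaller than either SD. The 2 ratios over Clock restate the difference in Clock and are given with no test.

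**Figure D1:**
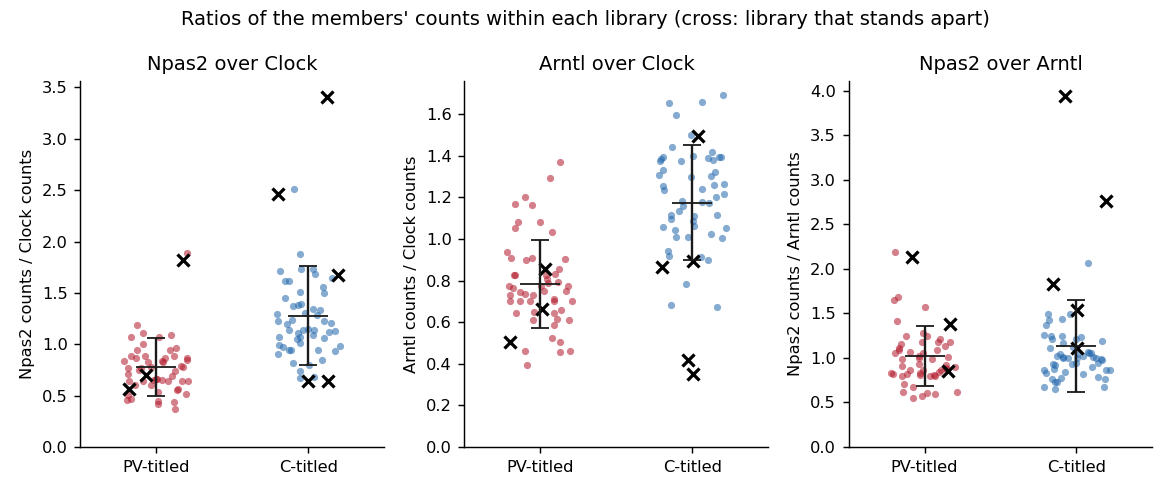
Ratios of the counts of 2 genes within each library (y axes, no unit), PV-titled at left and C-titled at right in each panel; points are libraries, crosses the 8 libraries that stand apart, and bars the mean ± SD. The ratios over Clock average 0.779 and 0.784 in PV-titled libraries and 1.28 and 1.17 in C-titled libraries, while Npas2 over Arntl overlaps throughout.

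Per kilobase of exon, mean levels in PV-titled libraries were 11.8 for Npas2, 7.71 for Arntl and 5.56 for Clock (CPM per kilobase), and in C-titled libraries 14.03 for Npas2, 8.19 for Arntl and 3.96 for Clock. Npas2 thus had the highest level per length and Clock the lowest in both. The order depends on the length used. Per kilobase of the longest coding transcript Arntl came first, with 19.5 in PV-titled libraries and 20.7 in C-titled ones, ahead of Npas2 with 13.4 in PV-titled libraries and 15.9 in C-titled ones and Clock with 7.83 in PV-titled libraries and 5.57 in C-titled ones.

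Taken at each time, the Clock difference passed the test at all 6 times, from 0.32 log2 (SE 0.13, adjusted p = 0.0206) at ZT10 to 0.69 (SE 0.12, adjusted p = 3.31e-07) at ZT14. Of all genes, 71.2% passed at ZT2, 72.8% at ZT6, 67.1% at ZT10, 72.1% at ZT14, 68.7% at ZT18 and 68.5% at ZT22. Npas2 passed at ZT6 (-0.63 log2, SE 0.17, adjusted p = 0.000537), and at the other times its difference lay between -0.29 and 0.11 log2. Arntl passed at ZT6 (-0.24 log2, SE 0.11, adjusted p = 0.0439), and elsewhere lay between -0.17 and 0.08. Without the libraries that stand apart Npas2 passed at ZT6 (-0.43, adjusted p = 0.00277) and at ZT10 (-0.41, adjusted p = 0.00330), and at ZT2 its difference was -0.0038 log2 in place of -0.29. A change of the difference over the times was not found for any member (adjusted p = 0.766 for Arntl, 0.775 for Clock and 0.594 for Npas2; 0.0766% of all genes passed).

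**Figure D2:**
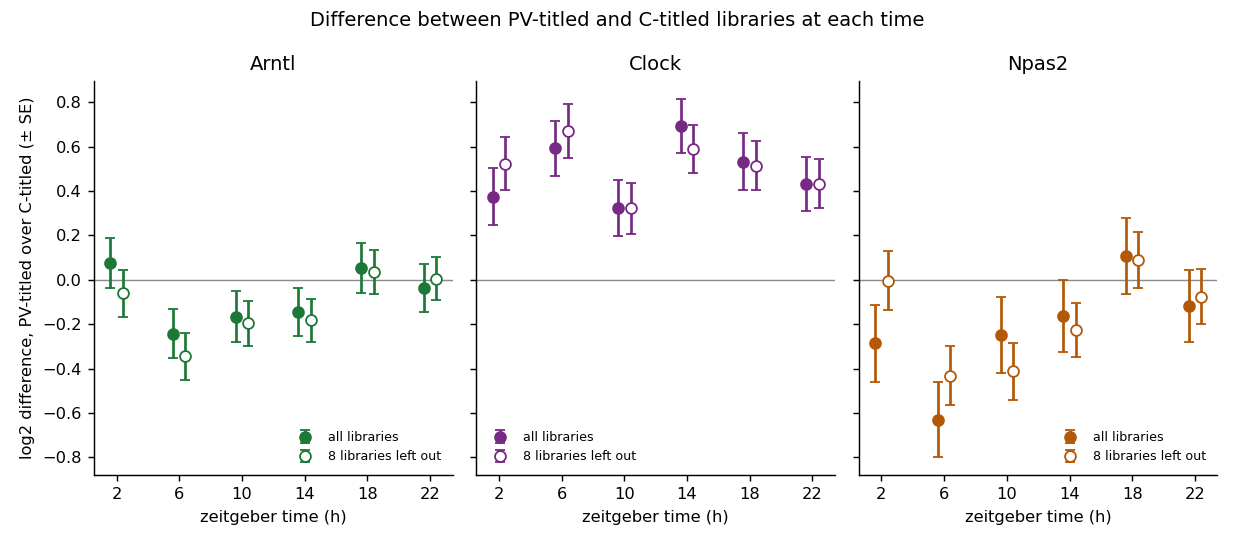
Fitted log2 difference of PV-titled over C-titled libraries (y axis, ± SE) at each zeitgeber time (x axis, h), filled with all 113 libraries and open without the 8 that stand apart. Clock lies above 0 at every time, Arntl and Npas2 reach their lowest value at ZT6, and the Npas2 points at ZT2 move most when libraries are left out.

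Arntl was the member whose level followed the time of day in both prefixes, with fitted peaks near the start of the light phase. In PV-titled libraries the group with the highest mean was ZT2, at 50.8 CPM (lowest), 73.6 (median) and 90.7 (highest) over 8 libraries. The lowest group mean was at ZT10, with 37.3 CPM (lowest), 51.0 (median) and 54.1 (highest) over 9 libraries. Of the 8 libraries at ZT2, 7 exceeded every library at ZT10, so the groups overlapped by 1 library. A 24 h cosine fitted to the PV-titled libraries had an amplitude of 0.30 log2 from mean to peak (SE 0.05), 1.52-fold from trough to peak, with the peak at ZT23.5 (SE 0.60 h; adjusted p = 9.59e-05). Here 3.10% of 13047 genes passed, and Arntl ranked 23 by p.

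In C-titled libraries Arntl also had its highest group mean at ZT2, with 40.5 CPM (lowest), 74.4 (median) and 85.1 (highest) over 10 libraries, and its lowest at ZT10, with 42.8 (lowest), 54.0 (median) and 69.3 (highest) over 9. At ZT2, 7 of 10 libraries exceeded every library at ZT10; the 2 lowest at ZT2, 40.5 and 54.0 CPM, are libraries that stand apart. The fitted amplitude was 0.22 log2 (SE 0.04, 1.36-fold) with the peak at ZT0.73 (SE 0.72 h; adjusted p = 0.000302). In this prefix 27.0% of 13029 genes passed. Without the libraries that stand apart the Arntl amplitude was 0.33 in PV-titled libraries (peak ZT23.4, adjusted p = 1.25e-05) and 0.26 in C-titled libraries (peak ZT1.30, adjusted p = 1.27e-07).

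Within number ranges the Arntl amplitude in PV-titled libraries was 0.34 in the first (adjusted p = 0.236) and 0.29 in the second (adjusted p = 0.00941), and in C-titled libraries 0.21 in the first (adjusted p = 0.0396) and 0.24 in the second (adjusted p = 0.0524). Leaving out single libraries moved the Arntl amplitude between 0.28 and 0.32 in PV-titled libraries and between 0.21 and 0.24 in C-titled ones. The 2 rhythms were not told apart: the PV-titled amplitude minus the C-titled one was 0.08 (SE 0.06), the peak difference was -1.18 h (SE 0.94 h), and the test of both together gave an adjusted p = 0.5995 (0.559% of all genes passed).

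**Figure D3:**
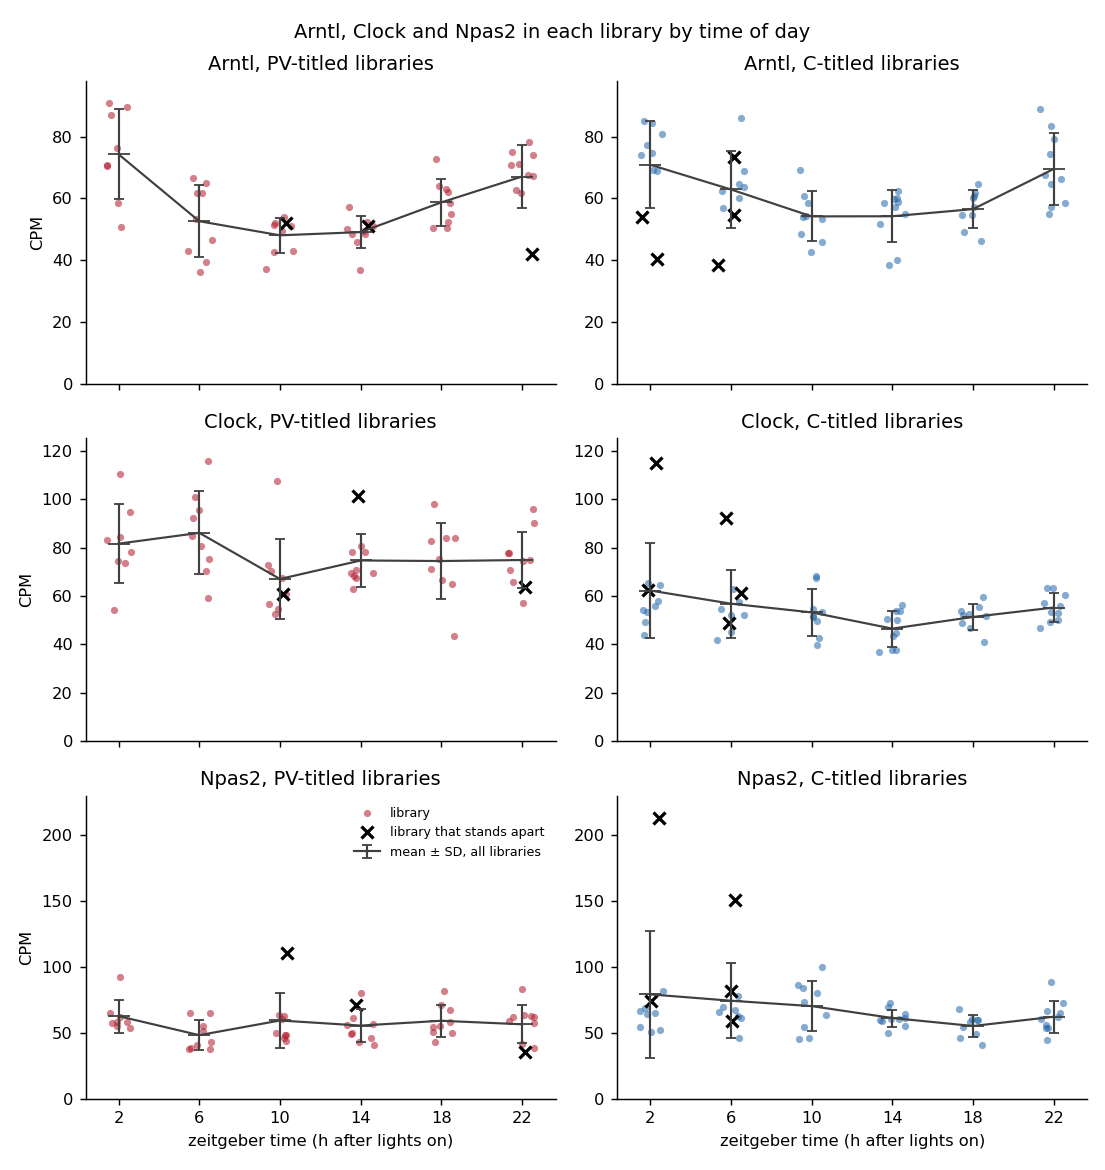
CPM (y axes, from 0) of Arntl, Clock and Npas2 in each library against zeitgeber time (x axes, h), PV-titled at left and C-titled at right; points are libraries, crosses those that stand apart, and bars the mean ± SD over all libraries of a time. Arntl dips at ZT10 and ZT14 in both columns, and the highest Clock and Npas2 values among C-titled libraries (115 and 212.7 CPM) are crosses at ZT2.

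Clock did not pass the rhythm test in PV-titled libraries. Its highest group mean there was 86.0 ± 17.1 CPM at ZT6 and its lowest 67.0 ± 16.7 CPM at ZT10 (SD, n = 9 each), and 1 of 9 libraries at ZT6 exceeded every library at ZT10. The fitted amplitude was 0.09 log2 (SE 0.05, adjusted p = 0.608). In C-titled libraries Clock had 43.8 CPM (lowest), 57.1 (median) and 115 (highest) at ZT2 and 37.0 (lowest), 47.4 (median) and 56.4 (highest) at ZT14. Its C-titled amplitude was 0.17 log2 (SE 0.05, 1.27-fold) with the peak at ZT2.49 (SE 1.06 h; adjusted p = 0.0160). That call was lost without the libraries that stand apart (amplitude 0.10, peak ZT1.78, adjusted p = 0.0996), in the first range (0.12, adjusted p = 0.221) and in the second (0.22, adjusted p = 0.133). Leaving out single libraries moved the Clock amplitude between 0.062 and 0.11 in PV-titled libraries and between 0.13 and 0.18 in C-titled ones. The Clock rhythms of the prefixes were not told apart (adjusted p = 0.807; amplitude difference -0.08, SE 0.07).

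For Npas2 the PV-titled amplitude was 0.07 log2 (SE 0.06, adjusted p = 0.825), with group means between 48.2 ± 11.3 CPM at ZT6 (n = 9) and 62.7 ± 12.5 CPM at ZT2 (n = 8). Only 1 of 8 libraries at ZT2 exceeded every library at ZT6. Among C-titled libraries Npas2 had 50.6 CPM (lowest), 65.8 (median) and 212.7 (highest) at ZT2 and 40.5 (lowest), 58.1 (median) and 67.9 (highest) at ZT18. At ZT2, 4 of 10 libraries exceeded every library at ZT18. The C-titled amplitude was 0.23 log2 (SE 0.07, 1.38-fold), peaking at ZT5.11 (SE 1.16 h; adjusted p = 0.0333). With the digit in the titles as a block in place of the number range, the amplitude was 0.18 and the call was lost (adjusted p = 0.0630). Leaving out single libraries moved it between 0.17 and 0.25 and its peak between ZT4.51 and ZT6.49, and moved the PV-titled amplitude between 0.046 and 0.11.

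The highest Npas2 values belong to libraries that stand apart. The 2 highest C-titled values, 212.7 CPM at ZT2 and 150.7 CPM at ZT6, are both of this kind, and so is the highest PV-titled value, 111 CPM at ZT10. Without such libraries the C-titled amplitude was 0.11 (peak ZT7.10, adjusted p = 0.212) and the highest group mean moved to ZT10 (70.3 ± 19.2 CPM, n = 9). The amplitude was 0.20 in the first range (adjusted p = 0.3997) and 0.25 in the second (adjusted p = 0.181). Between prefixes the Npas2 rhythms gave an unadjusted p = 0.0182 and an adjusted p = 0.251, which was 0.468 with the libraries that stand apart left out.

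Across the 12 groups of prefix and time, Arntl ran from 74.3 CPM (PV-titled, ZT2) down to 48.1 CPM (PV-titled, ZT10). Clock ran from 86.0 CPM (PV-titled, ZT6) to 46.5 CPM (C-titled, ZT14), and its 6 PV-titled means were all above its 6 C-titled means. Npas2 ran from 79.2 CPM (C-titled, ZT2) to 48.2 CPM (PV-titled, ZT6). For each gene, 0 of the 11 steps between neighbours in this order exceeded the larger SD of the 2 groups. Steps between 12 sorted means are small by construction, so this count does not show that the groups are alike.

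Sex was not seen to move the level of any member. The female over male difference was 0.07 log2 (SE 0.07) for Arntl, 0.05 (SE 0.08) for Clock and 0.14 (SE 0.09) for Npas2 in PV-titled libraries, and 0.02 (SE 0.06) for Arntl, 0.07 (SE 0.07) for Clock and -0.01 (SE 0.10) for Npas2 in C-titled libraries, with adjusted p from 0.866 to 0.9999; 0.0307% of genes passed in PV-titled libraries and 0.184% in C-titled ones. In PV-titled libraries the Arntl amplitude was 0.41 in females and 0.20 in males (unadjusted p = 0.0359, adjusted p = 0.894). No gene passed that test of rhythm between the sexes (0% called); 5.42% of genes had an unadjusted p under 0.05 in PV-titled libraries and 1.34% in C-titled ones. Among C-titled libraries Arntl had an amplitude of 0.21 in females and 0.23 in males. Libraries of the second number range had less Arntl (-0.23 log2, adjusted p = 0.00169) and less Npas2 (-0.25 log2, adjusted p = 0.0414) than those of the first among C-titled libraries, where 41.1% of genes passed. The range was a term of every fit that holds both, except where the title digit took its place.

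The feedback genes are those whose products return to the activators or to the Arntl promoter. The table holds 12 feedback genes: the Per and Cry genes, Ciart, Bhlhe40, Bhlhe41, Nr1d1, Nr1d2, Rora and Rorb. Of these, 8 were rhythmic in PV-titled libraries and 10 in C-titled ones, beside 3.10% and 27.0% of all genes. All of these calls had a fitted peak at ZT12 or later. Many rhythmic genes of the whole table also peaked at these times, and whether the feedback genes differ from them in peak time was not tested. The same 8 and 10 genes passed without the libraries that stand apart. Nr1d1, which encodes the repressor REV-ERB alpha, peaked at ZT12.8 (SE 0.62 h) with an amplitude of 0.28 log2 in PV-titled libraries and at ZT12.4 (SE 0.37 h) with 0.42 in C-titled libraries. Counted forward on the 24 h circle, the Arntl peak lay 10.8 h (SE 0.86 h) after the Nr1d1 peak in PV-titled libraries. In C-titled libraries this gap was 12.3 h (SE 0.81 h). Such gaps set no order, since on a circle each peak also lies before the other.

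Per2, a repressor of the pair, had an amplitude of 0.65 log2 and peaked at ZT17.9 (SE 0.46 h) in PV-titled libraries, against 0.59 and ZT18.6 (SE 0.51 h) in C-titled libraries. Counted forward in the same way, the gap to the Arntl peak was 5.60 h (SE 0.76 h) in PV-titled libraries and 6.15 h (SE 0.88 h) in C-titled ones. Ciart, which encodes another repressor of the pair, had the highest amplitude of the feedback genes, 0.93 log2 in PV-titled libraries and 0.91 in C-titled ones. All 3 members had a lower amplitude than Per2 in both prefixes. In level, 5 of 12 feedback genes were higher and 5 lower in PV-titled libraries with TMM, and 6 and 5 when scaled by library totals. Beside them, 44.3% of all genes were higher and 43.2% lower with TMM, so these counts do not set the feedback genes apart. The median difference of the feedback genes was 0.01 log2, as for all genes. Higher with TMM were Per2, Per3, Bhlhe41, Rora and Rorb, and lower were Cry1, Cry2, Ciart, Bhlhe40 and Nr1d1; these are named with their values seen.

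Of 9 output genes, which the clock drives without being part of its loop, 0 were higher and 8 lower in PV-titled libraries, or 1 and 8 when scaled by library totals, and the median difference was -0.45 log2; of all genes, 44.3% were higher and 43.2% lower. Dbp, a transcription factor gene and direct target of the pair, was lower in PV-titled libraries, at -0.85 log2 (SE 0.05, adjusted p = 3.12e-31), with 114.5 ± 39.6 CPM in PV-titled libraries and 205.2 ± 79.9 CPM in C-titled ones (SD). Rhythm was called for 4 in PV-titled libraries (Dbp, Tef, Hlf and Usp2) and for 8 in C-titled ones, these 4 among them, beside 3.10% and 27.0% of all genes. Dbp was the one gene of the 4 lists called in the test of rhythm between the prefixes (adjusted p = 0.0352). It peaked at ZT13.5 in PV-titled libraries and ZT15.0 in C-titled ones. Over the whole table that test called 73 of 13053 genes (0.559%), and 18 of 13057 (0.138%) without the libraries that stand apart. Tef and Hlf, which encode relatives of DBP, peaked at ZT18.0 and ZT17.1 in PV-titled libraries and at ZT18.6 and ZT18.2 in C-titled ones.

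**Figure D4:**
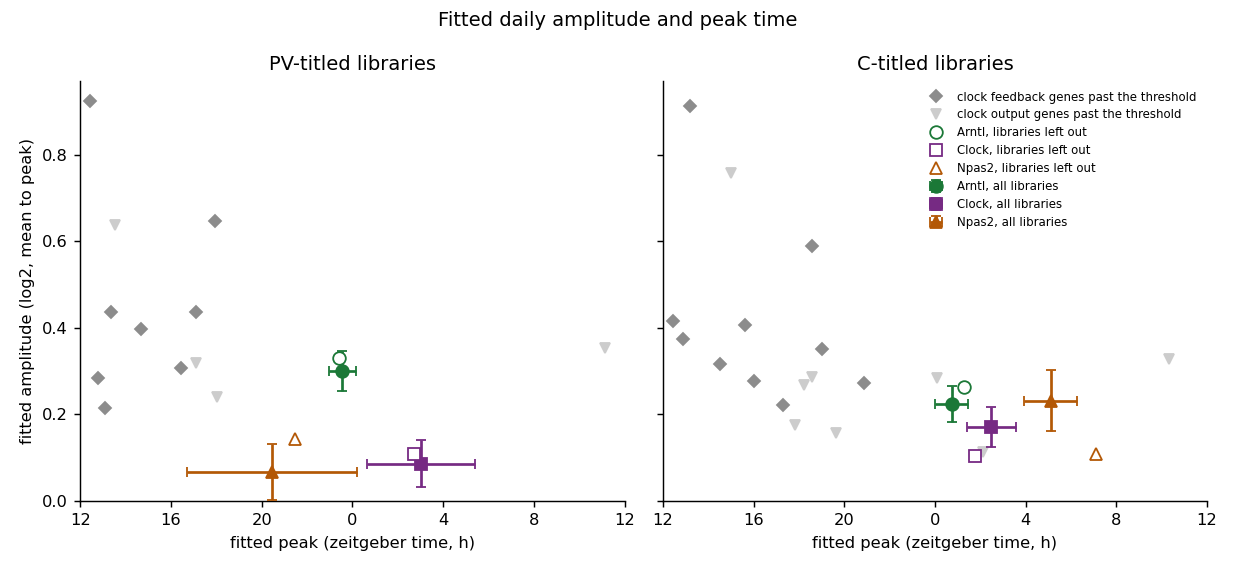
Fitted amplitude (log2, mean to peak, y axis) against fitted peak (zeitgeber time in h, x axis from 12 through 0 to 12), PV-titled at left and C-titled at right. Coloured symbols are the 3 members with SE bars, open without the libraries that stand apart, and grey symbols are feedback and output genes past the threshold; Arntl sits at ZT23.5 and ZT0.73, while the C-titled amplitudes of Clock and Npas2 drop to 0.10 and 0.11 when libraries are left out.

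Of 13 bHLH-PAS relatives in the table, 9 were higher and 2 lower in PV-titled libraries, or 10 and 0 when scaled by library totals, with a median difference of 1.37 log2, beside 44.3% higher and 43.2% lower among all genes. The 2 lower ones with TMM, named with their values seen, were Arnt2 and Hif1a, at -0.16 and -0.29 log2. Npas1, the gene for an interneuron transcription factor related to NPAS2, was higher by 2.32 log2 (SE 0.08), and Hif3a, from the hypoxia-inducible family, by 2.34 log2 (SE 0.16). Rhythm was called for 0 of them in PV-titled libraries and for 3 in C-titled ones (Npas1, Hif3a and Npas4), beside 3.10% and 27.0% of all genes. Without the libraries that stand apart 2 of these 3 passed, and Npas1 did not (amplitude 0.16, adjusted p = 0.239). Npas4, an activity-induced member of the family, had an amplitude of 0.53 log2 and a peak at ZT18.1. Of 19 co-regulators and modifiers in the table, 11 were higher and 6 lower in PV-titled libraries, or 13 and 4 when scaled by library totals, beside 44.3% and 43.2% of all genes. Among them 1 was rhythmic in PV-titled libraries and 7 in C-titled ones, beside 3.10% and 27.0% of all genes. The one called in both was Csnk1d, the gene for a kinase that acts on PER proteins, with a peak at ZT19.4 in PV-titled libraries and ZT19.0 in C-titled ones. Cipc, from a gene whose product inhibits CLOCK, was lower in PV-titled libraries (-0.35 log2, SE 0.05) and rhythmic in C-titled libraries, at an amplitude of 0.19 log2 and a peak at ZT13.9. Without the libraries that stand apart 6 co-regulators were rhythmic in C-titled libraries, 4 of which were also among the 7 with all libraries.

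Over the 12 means of prefix and time, centred within each prefix, Pearson's r of log2 CPM was 0.54 for Arntl with Clock, 0.43 for Npas2 with Arntl and 0.15 for Npas2 with Clock, which describes means over the same libraries. Across libraries, 6 relations were computed (3 pairs of members in each prefix), and none passed with all libraries: r lay between -0.10 and 0.20, Spearman's rho between -0.13 and 0.23, and the permutation p adjusted over the 6 between 0.851 and 0.900 for r and between 0.467 and 0.793 for rho. In C-titled libraries r for Arntl with Clock was 0.39 in the first range and -0.26 in the second. Leaving out the 2 libraries farthest from the median put r between -0.01 and 0.18. With the libraries that stand apart left out, Arntl with Clock in C-titled libraries had r = 0.32 (adjusted permutation p = 0.130) and rho = 0.37 (adjusted permutation p = 0.0337).

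The genes with profiles most like Arntl over those 12 means were Mapk11 (r = 0.96), which encodes a stress-activated kinase, Efr3a (0.95), Slc25a20 (0.93), the gene for the mitochondrial carnitine carrier, Ptk2 (0.93), which encodes focal adhesion kinase, and Tdrkh (0.91). Of these, Mapk11 was rhythmic in PV-titled libraries with an amplitude of 0.36 log2 and a peak at ZT22.8, and in C-titled libraries with 0.24 and ZT0.18. Ptk2 was also called in both, peaking at ZT23.5 in PV-titled libraries and ZT23.2 in C-titled ones. For Clock the nearest were Zmym4, Npepps, Snhg14, Ttc39b and Ireb2 (r from 0.92 to 0.96), and for Npas2 Prkar2a, Tmeff1, Rtn4ip1, Cabp7 and Rfx4 (r from 0.87 to 0.90). Without the libraries that stand apart the 5 genes named for Arntl had r from 0.84 to 0.97, those for Clock from 0.75 to 0.93 and those for Npas2 from 0.52 to 0.86. Within the first number range r lay between 0.44 and 0.90 for the genes named for Arntl, 0.15 and 0.78 for Clock and 0.20 and 0.77 for Npas2, and within the second between 0.72 and 0.85 for Arntl, 0.37 and 0.85 for Clock and 0.39 and 0.83 for Npas2. These likenesses describe 12 means and carry no test.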

How the data were processed

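Ribosome-associated RNA of 113 of the 114 libraries in the labels was analysed; 1 column was not used, because its name gives another sex than the title it would fit. The deposited table holds whole-number read counts per gene, made by the authors with HTSeq on build GRCm38 per the submitters' processing notes, which also name FastQC and DESeq2; the sources used here give no versions, aligner, strand setting or annotation. Per the labels' protocols, cDNA came from the SMART-seq HT kit and libraries from Nextera Flex. Symbols matched 13051 of 13101 identifiers (GENCODE vM21 names). Reads assigned to no gene (55.5% to 67.7% of counts in PV-titled, 51.9% to 59.4% in C-titled libraries) were kept out of totals.

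Tests used R 4.3.3 and edgeR 4.0.16 on the deposited counts (TMM, filterByExpr, quasi-likelihood F tests, Benjamini-Hochberg over all genes tested, threshold 0.05). The prefix was tested with time, sex and number range as terms. Rhythm was tested within each prefix by a cosine and a sine term (period 24 h) taken jointly, with sex and range as terms, and differences in rhythm by their products with prefix or sex. CPM in the text are TMM-scaled; log2 CPM used a prior count of 1. Members had 748 to 4328 counts per library, which carry counting error only as far as reads are separate molecules. Pairs of libraries alike in prefix, sex and time differed beyond sampling noise (lowest chi-square per gene 32.5 in 100 PV-titled pairs, 14.0 in 112 C-titled pairs). Xist levels split by the sex labels. A library stands apart when its median correlation lies over 6 median absolute deviations below the median of its prefix. Relations used 100000 permutations within number range (Python 3.11.15, numpy 2.4.6). Fits were tested on simulated data. Alternatives were DESeq2 1.42.0, other scalings, no filter, each range or sex alone, and libraries or times left out.

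The members and gene lists were chosen with earlier results of these data known. Named list genes are the 4 of each list with the smallest p of rhythm in C-titled libraries plus partners, repressors and targets of the members; genes most alike are the 5 with the highest r.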

Additional observations from a re-analysis of the deposited data

Results flagged for a closer look

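Each of the 36 groups of prefix and time of the 3 members was checked for a highest or lowest library far from the others (gap to the nearest library over the range of the group, log2 CPM, against Dixon's 95% critical value); 10 groups had one, where chance gives about 1 in 20. Libraries that stand apart account for 7 of the 10, and the cause was not tested.

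For Npas2 the highest library was at 212.7 CPM in C-titled ZT2 (next 82.1), 150.7 CPM in C-titled ZT6 (next 81.8) and 111 CPM in PV-titled ZT10 (next 63.8), all libraries that stand apart, and at 92.4 CPM in PV-titled ZT2 (next 64.9), which is not. For Clock it was at 115 CPM in C-titled ZT2 (next 65.5), 92.0 CPM in C-titled ZT6 (next 63.0) and 101.3 CPM in PV-titled ZT14 (next 80.6), which stand apart, and at 107 CPM in PV-titled ZT10 (next 72.6), which does not. For Arntl the lowest library was at 42.2 CPM in PV-titled ZT22 (next 61.8), which stands apart, and at 36.8 CPM in PV-titled ZT14 (next 45.9), which does not. No C-titled Arntl group was among the 10.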

How the results depend on the processing

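The Clock difference between PV-titled and C-titled libraries kept its direction and its call in all 15 alternatives (0.44 to 0.69 log2). In 22 alternatives each, no call was made for Clock and Npas2 rhythm in PV-titled libraries, nor for a difference in rhythm of any member. Small effects are missed. In simulated counts, the PV-titled fit found 27 of 100 rhythms of 0.2 log2 and 73 of 0.3. The test of rhythm differences found 8 at 0.2 and 62 at 0.4. Real PV-titled libraries may vary more. Subsets hold fewer libraries, so a missing call that persists in them shows little. The Arntl difference passed with DESeq2 (-0.10, adjusted p = 0.0416) and with its size factors in edgeR (-0.10). It also passed in the first range (-0.23) and without the libraries that stand apart (-0.12). Its sign turned in the second range (0.054) and with library totals (0.12). Leaving out all libraries with the same title digit, for each digit in turn, put the Arntl difference between -0.14 and -0.023. It passed without digit 4 and without digit 5. The Npas2 difference failed with library totals (-0.012), in the second range (-0.16) and in females (-0.13). With each title digit left out in turn it lay between -0.32 and -0.11 (without digit 3, -0.11, adjusted p = 0.0761). The Arntl rhythm failed in PV-titled libraries in the first range (0.34) and in males (0.21, adjusted p = 0.590), and in C-titled libraries in the second range (0.24) and in females (0.21, adjusted p = 0.118).

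Clock rhythm in C-titled libraries failed in 13 of 22 alternatives: library totals (0.14), first range (0.12), second range (0.22), females (0.14), males (0.21), libraries that stand apart left out (0.10), time as a factor (0.20), and ZT2 (0.15), ZT14 (0.14) or ZT18 (0.18) left out. Leaving out each title digit in turn gave 0.13 to 0.20, with 2 of 5 called. Npas2 rhythm there failed in 15 of 22: library totals (0.17), first range (0.20), second range (0.25), females (0.20), males (0.25), libraries that stand apart left out (0.11), time as a factor (0.24), and ZT6 (0.26), ZT10 (0.22), ZT14 (0.25), ZT18 (0.21) or ZT22 (0.22) left out. For Npas2, leaving out each title digit in turn gave 0.049 to 0.27, with 3 of 5 called, the lowest without digit 3. The causes were not tested; subsets hold fewer libraries.

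Title digits repeat across groups, and libraries with the same digit deviated together weakly (mean r 0.0685 in PV-titled libraries and 0.179 in C-titled ones, against -0.0328 and -0.0537 for other digits). Of the libraries, 27 of 55 PV-titled and 40 of 58 C-titled ones were closest to their own digit. That is a hint from the data that the digit marks something shared, though no chance level is given for these counts. The labels do not say what the digit marks. Most digits lie wholly or almost wholly in a single number range, so the digit largely coincides with that batch. With the digit as a block in place of the range, the Npas2 rhythm in C-titled libraries was not called (0.18, adjusted p = 0.0630), and no other member call changed.

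Chosen after seeing the data: without the libraries that stand apart the Arntl difference turned sign at ZT2 (-0.061) and ZT22 (0.0056), the Npas2 difference passed at ZT10 (-0.41), and r in C-titled libraries was 0.32 for Arntl with Clock (adjusted permutation p = 0.130; rho 0.37, adjusted permutation p = 0.0337) and -0.26 for Clock with Npas2 (adjusted permutation p = 0.213); with the mean of each time subtracted these r were -0.35 (adjusted permutation p = 0.0327; 0.015 without the 2 libraries farthest from the median, on which it rests) and -0.10. Over the whole table, rhythmic genes made up 0.0613% (males) to 4.37% (DESeq2) in PV-titled libraries, beside 3.10%, and 2.07% (females) to 28.7% (DESeq2) in C-titled ones, beside 27.0%; genes differing in rhythm made up 0% (first range) to 1.2% (DESeq2), beside 0.559%. The planned use of the column with the contradicting sex was not run, as it could not be mapped.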
